A study of Oryctolagus cuniculus with 16 samples.

Results

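The genes described here encode the enzymes that oxidise and conjugate foreign compounds and many lipids in the rabbit: cytochrome P450s (CYP), flavin monooxygenases (FMO), UDP-glucuronosyltransferases (UGT), glutathione S-transferases (GST) and sulfotransferases (SULT). They were chosen by symbol alone, from probes whose transcript accession could be matched to a rabbit gene symbol that starts with one of these 5 letter codes. Of 74 such symbols in the gene table used for naming, 37 had a probe on the array and 35 passed the filter on dim probes, among 19328 genes in the model, of which 2001 carried a name. The 35 genes were 21 CYP, 5 FMO, 3 UGT, 1 GST and 5 SULT genes. CYP2A11 and UGT2B14 did not pass: the CYP2A11 probe was well above background on 3 of 4 sham arrays and on 0 graft arrays, and neither UGT2B14 probe was well above background on more than 1 of 16 arrays.

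Microsomal P450 enzymes insert an oxygen atom into their substrate with electrons passed on by the reductase POR or, for some reactions, by cytochrome b5. Flavin monooxygenases instead oxidise soft nitrogen and sulfur atoms with a bound flavin. UGT, GST and SULT enzymes then attach glucuronic acid, glutathione or sulfate, which makes the product easier to excrete. The liver holds most of this capacity, but in the vessel wall several P450s act on arachidonic acid, giving epoxides and hydroxylated fatty acids that set vascular tone, and others act on cholesterol.

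All 3 groups were male rabbits and the material was vein tissue. The surgery group comprised vein grafts, which are segments of vein placed in the arterial circulation, removed on day 1 (6 arrays) or day 7 (6 arrays) after the operation, and the control group comprised veins after sham surgery (4 arrays). Total RNA was labelled with Cy3 and hybridised to a one-colour rabbit array. The labels give no age, no strain, no vein of origin and no link between arrays and animals, and day 1 arrays 1, 3 and 5, day 1 arrays 2, 4 and 6, and the same sets on day 7 differed by less than the spot noise, so each set was counted as 1 sample, leaving n = 2 for day 1, n = 2 for day 7 and n = 4 for sham surgery.

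From 32973 to 36319 probes of an array stood well above background. The 4 sham samples fell into a pair of pairs: the SD of the log2 difference between arrays was 0.22 to 0.26 within samples 1 and 2 or samples 3 and 4, and 0.73 to 0.74 between these pairs. Arrays from different graft sets of the same day gave an SD of only 0.21 to 0.22, like arrays within a sham pair. Relative to spot noise, the variance ratio between sets reached 1.07 to 2.13 (day 1) and 1.07 to 1.25 (day 7). Sham arrays gave 1.32 to 3.36 within pairs and 18.5 to 20.2 between them. Whether graft sets of a day, or sham samples of a pair, were separate RNA samples was not tested. Of the 35 genes, 8 (22.9%) differed between the sham pairs by over 1 on the log2 scale, against 9.94% of all genes. All sham arrays were read on a scan that held no graft array, so scan and surgery cannot be told apart in any comparison with sham. Both graft days shared the other scans, and all 15 differences between them called below exceeded 1 on the log2 scale within each of the 3 scans. Each of these scans read the same graft samples, so the scans are not independent repeats and this agreement was largely fixed in advance. Day 1 arrays were always at positions 1 and 2 and day 7 arrays at positions 3 and 4, so position and day cannot be told apart. As nothing says that the samples came from separate animals, p-values measure only the spread between these samples.

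Changes were asked for in 3 comparisons: what a graft had lost or gained 1 day after surgery, what it had lost or gained by 7 days, and what moved in between. A gene was called up- or down-regulated (a DEG) at a limma adjusted p-value below 0.05, corrected over all genes, with a log2 fold change of 1 or more in either direction. On day 1, 9 of the 35 genes were up-regulated (25.7%) and 9 down-regulated (25.7%) against sham, where 28.9% of all genes tested were up-regulated and 22.0% down-regulated, 50.9% in all. On day 7, 2 genes were up-regulated (5.71%, against 17.6% of all genes) and 10 down-regulated (28.6%, against 13.6% of all genes), where 31.3% of all genes were called. From day 1 to day 7, 2 genes rose (5.71%, against 19.3% of all genes) and 13 fell (37.1%, against 22.3% of all genes), where 41.6% of all genes were called. The shares called in either direction, 51.4%, 34.3% and 42.9%, lay near these backgrounds. The median log2 fold change of the 35 genes was 0.57 on day 1 (0.26 over all genes), -0.28 on day 7 (0.05 over all genes) and -0.60 from day 1 to day 7 (-0.16 over all genes), and -0.22 on day 7 with the 3 genes that had no day 7 signal above background set at their bound. Both comparisons with sham share the same 4 sham samples.

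The day 1 split depended on how the arrays were put on one scale. Before normalization the groups differed in brightness. The median 75th percentile signal was 942.1 on day 1, 1594.4 in sham and 2651.6 on day 7, and no array of one group overlapped another group. The part of this difference in the counts below was not tested. Scaling each array to its 75th percentile raised the median of all genes on day 1 to 0.68 and gave 20 up-regulated and 8 down-regulated genes, whereas background correction with normexp, which pulls dim probes together, gave 4 and 7. From day 1 to day 7 the same settings gave 2 up and 22 down, and 2 up and 6 down. The day 7 split against sham moved less, to 2 up and 11 down, and 2 up and 8 down. Without sham samples 1 and 2 the counts were 13 up and 11 down on day 1 and 3 up and 10 down on day 7, and without sham samples 3 and 4 they were 9 up and 8 down, and 3 up and 11 down.

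**Figure D1:**
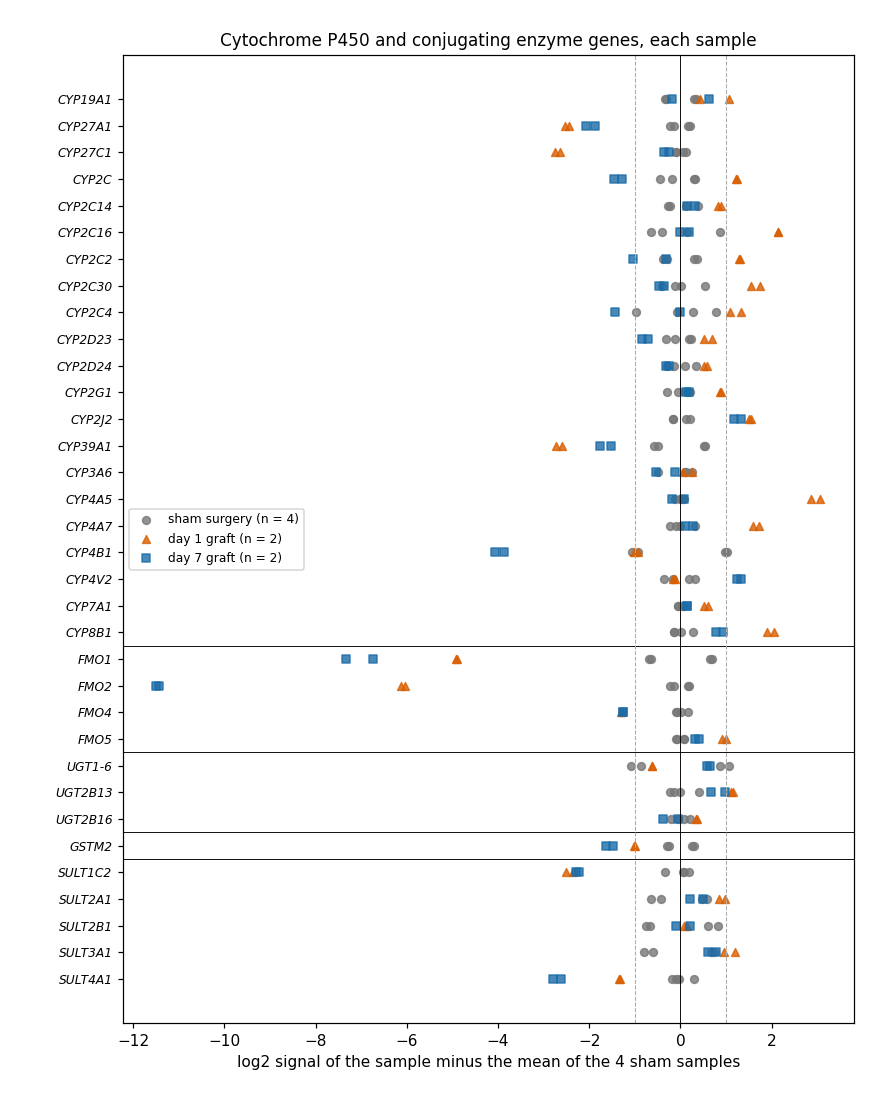
Each row is 1 of 34 of the 35 genes and each point 1 sample, placed at its quantile-normalized log2 signal minus the mean of the 4 sham samples; dashed lines mark a difference of 1. FMO2 and FMO1 lie farthest to the left, CYP4A5 on day 1 lies farthest to the right at 2.97 on average, and most day 7 points of the P450 genes sit left of their day 1 points. Values of FMO2 and CYP2C4 on day 7 and of SULT1C2 on both days were not well above background on any array.

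Among the flavin monooxygenases, 3 of 5 genes (60.0%) were down-regulated on each day, against 22.0% of all genes on day 1 and 13.6% on day 7, and FMO1 and FMO2 had the largest falls of all 35 genes. FMO2, the form known from lung, measured 12.49, 12.58, 12.89 and 12.88 (log2 signal) in the 4 sham samples, 6.66 and 6.58 on day 1, and 1.28 and 1.22 on day 7. The 3 groups were far apart, and on day 7 the probe was not well above background on any of 6 arrays. The log2 fold change on day 1 was -6.09 (SE 0.14, adjusted p = 1.81e-07). The day 7 level was at least 527-fold lower than sham and at least 7.73-fold lower than day 1. The limma adjusted p-values of these 2 comparisons (7.6e-08 and 2.69e-06) belong to the fitted day 7 signals, not to the bounds. All 3 FMO2 probes fell on day 1 (-6.09 to -5.38), and none was well above background on a day 7 array.

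FMO1, the form known from kidney and fetal liver, measured 13.13, 13.09, 14.46 and 14.43 in the sham samples, 8.85 and 8.89 on day 1, and 6.45 and 7.05 on day 7. No group overlapped another, although the sham pairs themselves stood 1.34 apart. The fall was 30.1-fold on day 1 (log2 fold change -4.91, SE 0.46, adjusted p = 5.46e-05) and 131-fold on day 7 (-7.03, SE 0.46, adjusted p = 1.83e-05). The further fall from day 1 to day 7 of -2.12 (adjusted p = 0.0109) was not called after normexp correction (-1.44, adjusted p = 0.0666) or without day 7 sample 1 (-1.82, adjusted p = 0.069). Of the 6 FMO1 probes, 1 was not well above background on any graft array, and the other 5 differed in the size of the change, from -4.91 to -0.52 on day 1, where 4 were called, and from -7.03 to -1.67 on day 7, where all 5 were called.

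FMO4 was the third to fall, by 1.30 on day 1 and 1.26 on day 7 (SE 0.11 for each, adjusted p = 2.37e-05 and 5.59e-05), and its days differed by 0.04 (adjusted p = 0.77). FMO5 did not pass the fold threshold, with differences from sham of 0.95 on day 1 and 0.36 on day 7. Its second probe was called on day 1 (1.53), and scaling to the 75th percentile called the gene on day 1 (1.18).

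**Figure D2:**
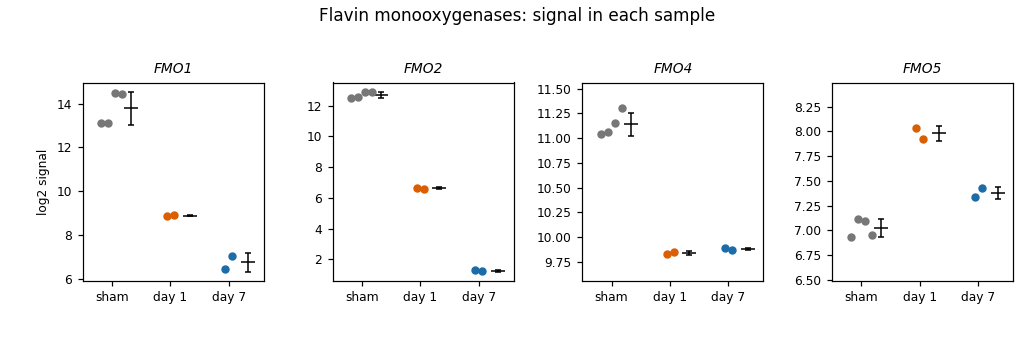
Log2 signal of 4 flavin monooxygenase genes (y axis, a separate range in each panel) in sham surgery, day 1 and day 7 samples; coloured points are samples and black bars the mean ± SD (n = 4, 2 and 2). FMO1 and FMO2 step down at both times, from means of 13.78 and 12.71 in sham to 6.75 and 1.25 on day 7, the last not well above background, whereas FMO4 drops once, from 11.14 to 9.84, and stays at 9.88.

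In the same arrays, vessel wall markers fell and leukocyte markers rose on day 1. From day 1 to day 7 the wall lists parted. The summed smooth muscle and fibroblast signals rose, the latter from 139191 to 139414 on day 1 to 809654 to 832704 on day 7. FMO1, FMO2, MYH11 and the summed endothelial signal were lower on day 7 than on day 1. In bulk tissue, fewer cells of a type and less RNA per cell cannot be told apart. Of the smooth muscle markers, 3 of 7 were measured; MYH11 fell by 5.33 on day 1 and by 6.49 on day 7, ACTA2 fell by 5.14 on day 1 and differed by -0.49 on day 7, and the summed linear signal of the list went from 314738 to 527158 in sham to 11697 to 12123 on day 1 and 197852 to 234417 on day 7. Of the endothelial markers, 2 of 7 were measured and both fell on both days, KDR to a level not well above background on any graft array (summed signal 458 to 553, 192 to 196, and 62 to 65), and of the fibroblast markers all 3 measured fell on day 1 and 1 (DCN) on day 7. The macrophage and monocyte list rose, 3 of 3 measured on both days, from a summed signal of 1939 to 4058 in sham to 138270 to 141736 and 113265 to 122998. The neutrophil list rose for 5 of 5 measured on day 1 and 3 of 5 on day 7, and the T lymphocyte list for 2 of 3 on each day. The part of these cell types in the enzyme genes was not tested.

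The adipocyte marker ADIPOQ was at least 53.3-fold lower on day 1, where it was not well above background, and fell by 4.47 on day 7, and 1 of 3 adipocyte genes measured was called on each day. LPL, also of this list, stood at 10.03 in sham sample 1 and 16.92 in sham sample 3. The hepatocyte marker ALB, whose tissue holds most of these enzymes, had a mean of 4.67 in sham, 3.77 on day 1 and 3.53 on day 7 and was well above background on 3 of 6 arrays on each graft day, and 2 of 3 measured hepatocyte genes fell on day 1 and 3 of 3 on day 7. The summed signal of the hepatocyte list was far above that of ALB. It was 359323 to 557046 in sham, 141156 to 146434 on day 1 and 27984 to 51272 on day 7. Neither red blood cell gene was called against sham. Both skeletal muscle genes measured, CKM and MYH1, were higher on day 1, and CKM was lower on day 7. The part of these tissues was not tested either.

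The P450 counts differed between the comparisons. On day 1, 8 of 21 were up-regulated (38.1%, against 28.9% of all genes) and 3 down-regulated (14.3%, against 22.0%). The 52.4% called in either direction lay near the 50.9% of all genes. On day 7 the counts were 2 and 4, which at 28.6% called lay near the 31.3% of all genes. Between the days 2 rose and 10 fell (47.6%, against 22.3% of all genes). CYP2C genes, whose probes could share signal, gave 4 of the 8 rises on day 1 and 5 of these 10 falls. The medians were 0.85, -0.28 and -0.83. The CYP2C genes, which in mammals hydroxylate drugs and steroids and make epoxides of arachidonic acid, were measured by 6 members. On day 1, 4 of the 6 were up-regulated: CYP2C16 by 2.14 (SE 0.39, adjusted p = 0.0018), CYP2C30 by 1.64, CYP2C2 by 1.29 and CYP2C by 1.23. The CYP2C2 call was lost after normexp correction (0.23) and without sham samples 3 and 4 (0.96). CYP2C14 differed by 0.85, and CYP2C4 by 1.20 (adjusted p = 0.0797). From day 1 to day 7, 5 of the 6 fell, with log2 fold changes from -2.59 to -1.92, and the remaining one, CYP2C14, stood at -0.62. Of these, CYP2C4 passed the filter only through day 1, so the filter favoured its fall from day 1. After normexp correction the calls of CYP2C (-0.61), CYP2C2 (-0.31) and CYP2C4 (-0.21) were lost, and that of CYP2C4 was also lost without day 1 sample 1 (adjusted p = 0.115), day 1 sample 2 (0.0826) or day 7 sample 2 (0.173).

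The member listed as CYP2C was called in opposite directions on the 2 days. It measured 4.53, 4.80, 5.29 and 5.30 in sham, 6.20 and 6.22 on day 1, and 3.52 and 3.70 on day 7. The groups did not overlap, and on day 7 the probe was well above background on 1 of 6 arrays. Its fold change was 1.23 on day 1 (SE 0.23, adjusted p = 0.00219) and -1.37 on day 7 (SE 0.23, adjusted p = 0.00199), and neither was called after normexp correction (0.37 and -0.24). CYP2C2 (well above background on 1 of 6 day 7 arrays) and CYP2C4 (on 0 of 6, at least 2.14-fold lower than day 1) were as dim on day 7. The rabbit CYP2C genes are near-identical copies of one another in part, so signal could be shared between their probes. CYP2C16 had 3 probes measured above background in all groups, and all 3 were called on day 1 (1.97 to 3.10) and from day 1 to day 7 (-2.28 to -1.76).

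The CYP2 family had 4 further members. CYP2J2, an arachidonic acid epoxygenase of heart and vessels, was up-regulated on both days. It measured 12.66, 12.66, 13.02 and 12.94 in sham, 14.32 and 14.37 on day 1, and 14.14 and 14.00 on day 7, so that every graft sample lay above every sham sample. The log2 fold change was 1.53 on day 1 (SE 0.14, adjusted p = 4.38e-05) and 1.25 on day 7 (SE 0.14, adjusted p = 0.000233), and the days differed by -0.28 (adjusted p = 0.166). Its second probe was called on day 1 (1.02) and not on day 7 (0.45), and the mean of both probes gave 0.85 on day 7. CYP2D23 fell from day 1 to day 7 by 1.39 (adjusted p = 0.00076). CYP2D24 and CYP2G1, the latter known from olfactory mucosa, differed from sham by 0.55 and 0.88 on day 1 and were not called. CYP3A6, of the drug-metabolising CYP3A family, and CYP19A1, the aromatase that makes oestrogen, were not called in any comparison, with differences of 0.16 and 0.74 on day 1.

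The CYP4 genes, whose products hydroxylate the far end of fatty acids, gave 4 members that did not move together. CYP4A5 measured 8.38, 8.34, 8.23 and 8.42 in sham, 11.21 and 11.41 on day 1, and 8.16 and 8.41 on day 7. Day 1 stood clear of both other groups, which overlapped. The rise of 2.97 on day 1 was 7.82-fold (SE 0.12, adjusted p = 1.05e-06) and the largest rise among the probes that stand for the 35 genes, though a second CYP2C16 probe rose by 3.10, the difference on day 7 was -0.06 (adjusted p = 0.716), and between the days it fell by 3.02 (SE 0.14, adjusted p = 5.62e-06). CYP4A7 followed it at a smaller size, with 1.65 on day 1, 0.20 on day 7 and -1.45 in between, while its second probe was not well above background on any sham array, and after normexp correction neither CYP4A7 change was called (0.61 and -0.55).

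CYP4B1, known from lung, moved the other way and later. It measured 9.35, 9.20, 11.25 and 11.29 in sham, 9.25 and 9.34 on day 1, and 6.39 and 6.20 on day 7. The sham pairs differed by 1.99, day 1 lay with the lower pair, and day 7 lay below every other sample. The fall on day 7 was 15.7-fold (log2 fold change -3.98, SE 0.66, adjusted p = 0.00168) and the log2 fold change from day 1 was -2.995 (SE 0.76, adjusted p = 0.0109), the latter at adjusted p = 0.0503 without day 1 sample 2 and 0.0544 without day 7 sample 2. On day 1 the difference of -0.98 was not called (adjusted p = 0.211), and without sham samples 1 and 2 it was called at -1.97.

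CYP4V2, a fatty acid hydroxylase mutated in a human retinal dystrophy, was, with CYP2J2, 1 of the 2 genes up-regulated on day 7. It measured 10.56, 10.76, 11.24 and 11.09 in sham, 10.75 and 10.79 on day 1, and 12.16 and 12.24 on day 7. Day 7 lay above all other samples, and day 1 lay inside the sham range. The rise was 1.29 against sham (SE 0.19, adjusted p = 0.00103) and 1.43 against day 1 (SE 0.22, adjusted p = 0.00112), with all 4 probes called against sham (1.29 to 1.74) and 3 of 4 against day 1. The remaining probe rose by 0.86 from day 1, and its day 1 samples (11.09 and 11.11) lay above its sham samples (10.34 to 10.80).

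**Figure D3:**
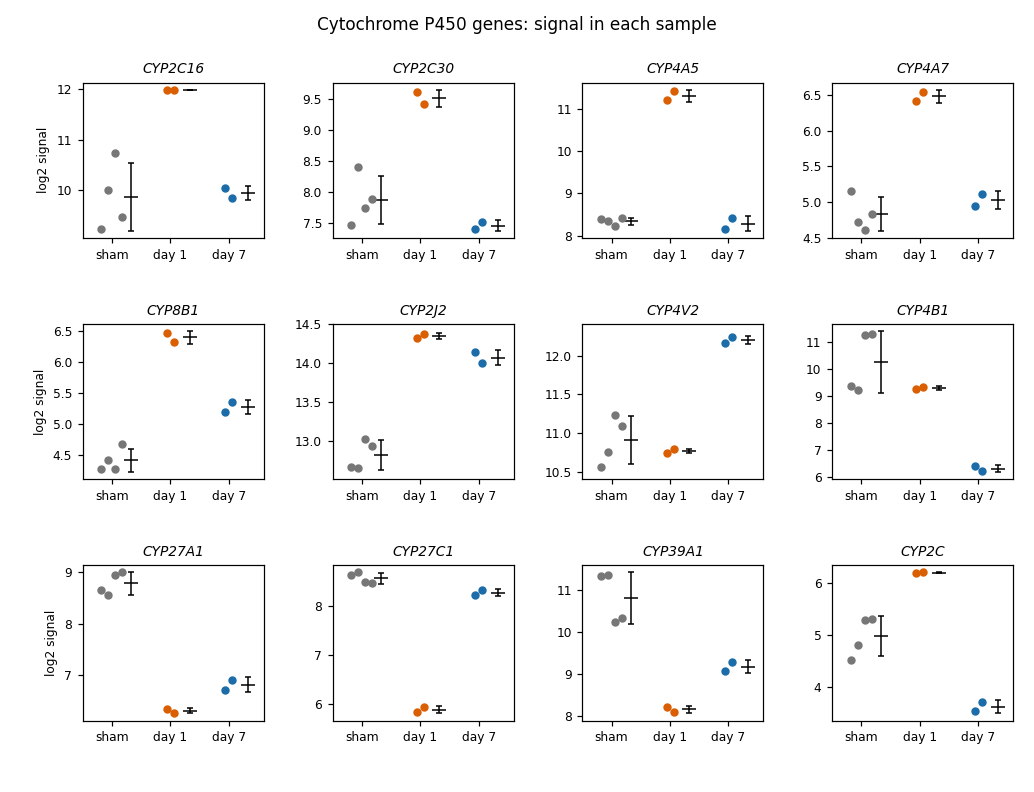
Log2 signal of 12 P450 genes (y axis, a separate range in each panel) in sham surgery, day 1 and day 7 samples; coloured points are samples and black bars the mean ± SD (n = 4, 2 and 2). CYP2C16, CYP2C30, CYP4A5, CYP4A7 and CYP8B1 peak on day 1, CYP2J2 is raised on both days, CYP4V2 is raised on day 7 while its day 1 samples lie within the sham range, CYP4B1 is lowest on day 7, and CYP27A1 and CYP39A1 are low on both days.

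The P450s of sterol metabolism included the only down-regulated P450s of day 1, together with CYP27C1. CYP27A1, the mitochondrial enzyme that hydroxylates the cholesterol side chain, measured 8.65, 8.55, 8.94 and 9.003 in sham, 6.34 and 6.26 on day 1, and 6.70 and 6.91 on day 7. All graft samples lay below all sham samples, and the fall was 5.60-fold on day 1 (log2 fold change -2.48, SE 0.16, adjusted p = 6.97e-06) and 3.94-fold on day 7 (-1.98, SE 0.16, adjusted p = 4.35e-05). CYP39A1, which hydroxylates oxysterols, measured 11.35, 11.37, 10.25 and 10.33 in sham, 8.22 and 8.09 on day 1, and 9.07 and 9.29 on day 7. CYP39A1 differed by 1.03 from day 1 to day 7, not called (limma adjusted p = 0.0661), but called when only the graft days were fitted (limma adjusted p = 0.001355). Its groups did not overlap either, and the fall was 2.67 on day 1 (SE 0.36, adjusted p = 0.000376) and 1.65 on day 7 (SE 0.36, adjusted p = 0.00655), the latter at adjusted p = 0.0533 without day 7 sample 1.

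CYP27C1, a relative of CYP27A1 that acts on vitamin A, measured 8.64, 8.70, 8.49 and 8.47 in sham, 5.83 and 5.93 on day 1, and 8.22 and 8.32 on day 7. It was low on day 1 alone, and day 7 lay just under the sham range. The fall on day 1 was 6.48-fold (log2 fold change -2.70, SE 0.11, adjusted p = 1.03e-06), the rise to day 7 was 5.26-fold (2.39, SE 0.13, adjusted p = 8.64e-06), and all 5 of its probes gave both calls.

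CYP8B1 and CYP7A1, hydroxylases of bile acid synthesis in the liver, were also on the array. CYP8B1 rose by 1.98 on day 1 (SE 0.14, adjusted p = 1.4e-05) and fell by 1.12 to day 7, with all 5 probes called on day 1, although its sham mean was only 4.41 ± 0.19 (SD, n = 4) and after normexp correction the day 1 difference was 0.60. CYP7A1 differed by 0.57 on day 1 and 0.14 on day 7 and was not called. The probe that stood for CYP7A1 was well above background on all 16 arrays, while the other 3 CYP7A1 probes were so on 14, 11 and 7. Its sham mean was 18.07, against 3.92, 3.535 and 3.65 for the other 3. Whether so bright a probe measures CYP7A1 was not tested. None of the 3 probes that passed the filter was called.

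GSTM2, a mu-class glutathione transferase and the only GST gene measured, was down-regulated on both days. It measured 17.29, 17.33, 17.83 and 17.88 in sham, 16.57 and 16.58 on day 1, and 15.95 and 16.09 on day 7, and no group overlapped another. The log2 fold change was -1.01 on day 1 (SE 0.20, adjusted p = 0.00254), where the call was lost in 6 alternatives with values from -0.997 to -0.74, among them leaving out sham sample 3 (-0.92) or 4 (-0.91), both (-0.74), and scaling to the 75th percentile (-0.84), and -1.56 on day 7 (SE 0.20, adjusted p = 0.000445), where it was lost with scaling to the 75th percentile (-0.46, adjusted p = 0.207) or to the median of all genes (-0.39, adjusted p = 0.308). Its difference from day 1 to day 7 was -0.56 (adjusted p = 0.0668) but 1.03 with scaling to the median. All 6 GSTM2 probes were called lower on day 7 (-2.55 to -1.56), as were the 5 that were well above background on day 1 arrays (-2.16 to -1.01).

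Of the sulfotransferases, 2 of 5 (40.0%) were down-regulated on both days, against 22.0% of all genes on day 1 and 13.6% on day 7. SULT1C2, 1 of these 2, passed the filter only through the sham samples, so the filter favoured a fall. SULT4A1, a sulfotransferase known from brain, measured 13.44, 13.92, 13.52 and 13.58 in sham, 12.29 and 12.26 on day 1, and 10.82 and 11.01 on day 7. The groups did not overlap, and it fell by 1.34 on day 1 (SE 0.15, adjusted p = 0.000141), by 2.70 on day 7 (SE 0.15, adjusted p = 8.78e-06) and by 1.37 in between, in both of its probes. SULT1C2, which sulfates phenols, measured 4.21, 4.18, 3.80 and 4.32 in sham, 1.76 and 1.61 on day 1, and 1.84 and 1.91 on day 7. Its probe was not well above background on any of 6 arrays on day 1 or of 6 on day 7. The fall was therefore at least 1.42-fold on day 1 and at least 1.37-fold on day 7, both under the fold threshold of a call. The limma adjusted p-values (7.77e-06 and 2.35e-05) belong to the fitted graft signals, which were not well above background, not to these bounds. Neither call held after normexp correction (-0.17 and -0.17).

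The other sulfotransferases were SULT2A1, which acts on steroid hormones, SULT2B1, which acts on cholesterol, and SULT3A1. None was called, and for all 3 the sham pairs stood 1.07 to 1.42 apart, with samples 1 and 2 higher. Without sham samples 1 and 2, SULT2A1 was called on day 1 (1.45), and SULT3A1 on day 1 (1.78) and day 7 (1.39).

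Of the 3 glucuronosyltransferase genes, 1 was called, up-regulated on day 1 (33.3%, against 28.9% of all genes), and the other comparisons gave 0 calls. UGT2B13, the one called, measured 4.72, 4.95, 4.81 and 5.36 in sham, 6.06 and 6.11 on day 1, and 5.62 and 5.94 on day 7. Every graft sample lay above every sham sample, with a rise of 1.13 on day 1 (SE 0.19, adjusted p = 0.00123) and a difference of 0.82 on day 7, and the day 1 value was 0.34 after normexp correction. Its second probe rose by 2.27 on day 1, differed by 0.07 on day 7 with both day 7 samples inside the sham range, and fell by 2.202 from day 1 to day 7, where the first probe gave -0.31 and the mean of both probes was called at -1.26. UGT2B16 differed from sham by 0.35 on day 1 and -0.22 on day 7. UGT1-6, singled out after its values were seen, had a mean of 10.83 in sham samples 1 and 2 and of 12.78 in samples 3 and 4, with day 1 at 11.18 and day 7 at 12.43 between them. Its differences of -0.62 on day 1 and 0.62 on day 7 did not pass, but against sham samples 3 and 4 alone the day 1 value was called at -1.59, and against samples 1 and 2 alone the day 7 value was called at 1.60. From day 1 to day 7 it differed by 1.24 (second probe 0.17) without overlap, and was not called (limma adjusted p = 0.181). Fitted to the graft days alone, this difference was called (limma adjusted p = 0.000241).

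**Figure D4:**
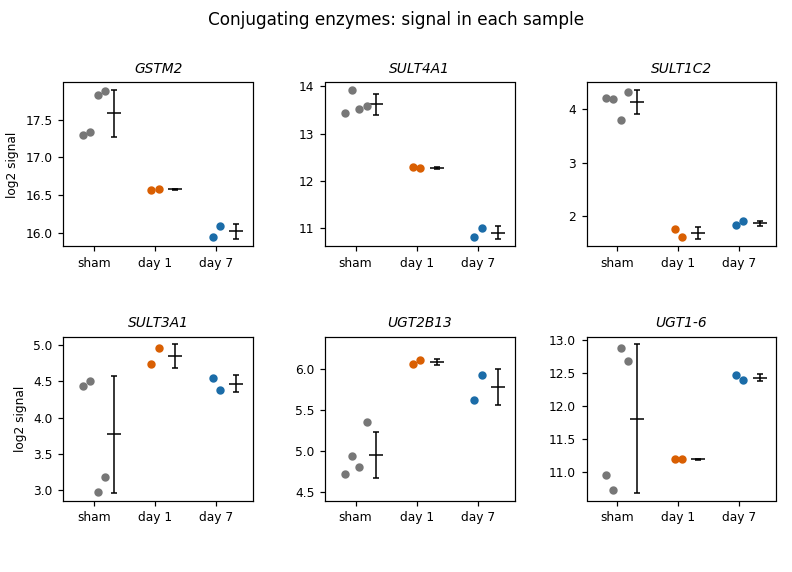
Log2 signal of 6 conjugating enzyme genes (y axis, a separate range in each panel) in sham surgery, day 1 and day 7 samples; coloured points are samples and black bars the mean ± SD (n = 4, 2 and 2). GSTM2 and SULT4A1 step down on both days, SULT1C2 is not well above background in any graft array, and the 4 sham points of SULT3A1 and UGT1-6 split into the pairs 1 and 2, and 3 and 4.

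A further list held 85 genes that supply, regulate or work beside these enzymes. Of these, 36 had a name on the array and 35 were tested: 9 rose and 10 fell on day 1, 6 rose and 12 fell on day 7, and 5 rose and 10 fell from day 1 to day 7. The shares called were 54.3% (against 50.9% of all genes), 51.4% (against 31.3%) and 42.9% (against 41.6%). Median differences were 0.16, 0.00 and -0.02. With scaling to the median of all genes the last split was 13 up and 5 down, and that of day 1 was 5 up and 11 down.

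The electron donors moved apart. POR, the reductase that serves all microsomal P450s, rose by 1.73 on day 1 (adjusted p = 6.06e-05), differed by 0.33 on day 7 and fell by 1.40 in between. CYB5A, the cytochrome b5 of the endoplasmic reticulum, fell by 2.53 on day 1 and fell by 2.10 on day 7 (adjusted p = 2.14e-06 and 1.07e-05). EPHX1, which opens epoxides made by P450s, fell by 2.01 and 2.88.

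Of the regulators, NFE2L2, the factor that switches on antioxidant enzymes, rose by 1.41 and 1.37, and ARNT and the receptor NR1I3 rose on day 1 alone among the tests against sham (1.25 and 1.101). AHR (0.39 and 0.79) and NR1I2 (0.25 and 0.09) were not called. PPARG fell by 2.26 on day 1, with sham samples 1 and 3 at 10.41 and 12.53.

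The genes of cofactor synthesis that were called all rose against sham. PAPSS1 and PAPSS2, which make the sulfate donor of the sulfotransferases, differed by 0.29 and 0.83 on day 1. They rose by 2.29 and 1.45 on day 7 (limma adjusted p = 1.66e-06 and 2.81e-05). Of the 5 sulfotransferases, 2 were called lower, SULT1C2 only on graft signals not well above background. GCLC, the first enzyme of glutathione synthesis, rose by 1.46 on day 1 and differed by 0.23 on day 7. MGST3, a membrane glutathione transferase, fell by 1.69 on day 1, and TPMT, which methylates thiopurines, fell by 2.49 and 1.23. The oxidase AOX1 fell by 1.69 on day 1 and fell by 3.001 on day 7, whereas XDH, also of this list, rose by 4.65 and 8.67. MAOA, which oxidises amines, fell by 1.44 on day 7 after -0.26 on day 1. The carboxylesterase CES1 fell by 4.01 on day 7 after -0.16 on day 1. ADH1A had the largest fall of the list on both days (-6.86 and -8.44). Not all called genes of the list are named here.

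Genes of arachidonic acid release and of its other routes were in the same list. PTGS1, the constitutive cyclooxygenase, fell by 1.31 on day 1 and 2.64 on day 7, LTA4H, which makes a leukotriene, rose by 1.26 and 1.48, and the phospholipase PLA2G4A was not called (0.35 and 0.95). GPX3, a secreted peroxidase that uses glutathione, rose by 1.98 on day 1 and fell by 2.40 below sham on day 7. The efflux pump ABCC3, which exports glucuronides, rose by 1.46 and 1.88, and ABCB1 fell by 1.65 on day 7.

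**Figure D5:**
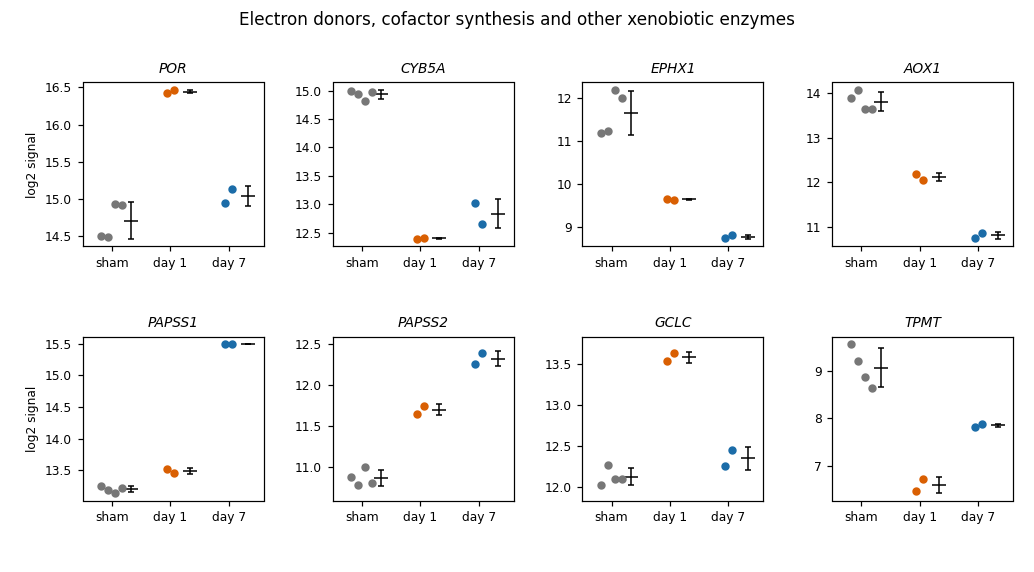
Log2 signal of 8 genes that work beside the enzymes (y axis, a separate range in each panel) in sham surgery, day 1 and day 7 samples; coloured points are samples and black bars the mean ± SD (n = 4, 2 and 2). POR and GCLC peak on day 1, CYB5A, EPHX1 and AOX1 are below sham on both days, TPMT is lowest on day 1, and PAPSS1 and PAPSS2 are highest on day 7.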

How the data were processed

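Cy3-labelled RNA of vein tissue was measured on 16 Agilent rabbit one-colour arrays. The authors deposited the signal intensity of each spot with background and quality calls (Agilent Feature Extraction 9.1 per the submitters' processing notes), and log2 values that the authors had quantile-normalized in GeneSpring and filtered. The first were used, and the authors' log2 values served as an alternative. Spots called non-uniform or outlying were set to missing on that array (1.46% of spots were so called on at least 1 array). Log2 signals were quantile-normalized and spots of a probe averaged, and the 35762 probes that every array of 1 group or more called well above background were kept. The brightest probe stood for its gene. Symbols came from RefSeq accessions in a gene list of the assembly mOryCun1.1 (3368 probes) and from gene identifiers in the study's supplement (2816 probes). That list served for names only, since the files use oryCun2, so no coordinates are given, and no sequences of the genes or probes were used here. Arrays of a group differing by less than the spot noise were averaged.

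The 3 groups were fitted together with lmFit and eBayes of limma 3.58.1 (R 4.3.3, with the package data.table of version 1.17.8) and Benjamini-Hochberg adjustment over all genes. The spread of the sham samples therefore enters the p-values of day 7 against day 1 as well. All p-values are two-sided values of this model. It was also run on simulated independent samples with planted changes. Those samples held no sham pairs and no scans, so that run cannot show how well the p-values hold here. A probe not well above background on any array of a group gives a bound ("at least"), with the dim group at the higher of its own signal and the lowest signal well above background on that array. Values in every sample are given for the 4 largest called changes among CYP genes and the 2 largest in other families, per comparison, and for called genes opposite to most called genes of their family. The genes and lists (85 other metabolism genes, and markers of smooth muscle, endothelium, macrophages and monocytes, neutrophils, T lymphocytes, fibroblasts, adipocytes, hepatocytes, red blood cells and skeletal muscle) were chosen with earlier results of these data known. The single values of 1 gene counted here are not reported. Alternatives covered normalization, background correction, the filter, the choice of probe, naming, averaging of arrays, blocks and leaving out samples. The number of arrays limits the precision. Figures were drawn with Python 3.11.15, pandas 2.3.3 and matplotlib 3.10.9.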

Additional observations from a re-analysis of the deposited data

Results flagged for a closer look

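For 15 of the 35 genes the change on day 7 differed from the change on day 1, by the limma test of day 7 against day 1 (adjusted p below 0.05 and a log2 difference of 1 or more in size). This share of 42.9% lay near the 41.6% of all genes called in that comparison. CYP27C1 and CYP4V2 had positive differences, of 2.39 and 1.43. The difference was -5.37 for FMO2, fitted to day 7 signals that were not well above background, and -2.12 for FMO1. In the CYP2C group it was -2.59 for CYP2C, -2.04 for CYP2C16, -1.97 for CYP2C2, -2.06 for CYP2C30 and -1.92 for CYP2C4, again fitted to day 7 signals not well above background. It was -1.39 for CYP2D23, -3.02 for CYP4A5, -1.45 for CYP4A7, -2.995 for CYP4B1, -1.12 for CYP8B1 and -1.37 for SULT4A1. No gene had a single sham sample standing apart from the other 3 by Dixon's criterion.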

How the results depend on the processing

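Of the 45 calls over the 3 comparisons, 24 held under every one of the alternatives that gave a value for that gene. The number of called genes moved by over 1.5 times in 4 cases: on day 1, from 18 to 28 with scaling to the 75th percentile and to 11 after normexp correction, and from day 1 to day 7, from 15 to 24 and to 8. Normexp compresses dim probes by construction, and the cause of the other moves was not tested. Leaving out 1 sample at a time gave 17 to 21 called genes on day 1, 11 to 13 on day 7 and 13 to 16 in between, where a group left with 1 sample was assumed to vary like the others. Sham samples 1 and 2, and 3 and 4, and scaling to the median of all genes, were tried after the data were seen. Replicate numbers did not pair the arrays (correlations of same-numbered arrays from -0.02 to 0.05), and with the replicate block on 16 separate arrays 20, 12 and 17 genes were called on day 1, on day 7 and in between, where the fit without the block called 20, 12 and 17. Direction turned for GSTM2 from day 1 to day 7 (-0.56, but 1.03 with scaling to the median) and for SULT1C2 (0.19, but -1.22 with scaling to the 75th percentile). The other metabolism genes stayed within 1.5 times of 19, 18 and 15 calls in all settings. Dim probes and n = 2 per graft day limit all values.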
